A study of Mus musculus with 15 samples.

Results

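The expression of 10 genes of the circadian clock and of the PAR bZIP family was examined in fetal mouse dorsal forebrain, out of 53337 genes in all. The genes were Tef, Dbp, Hlf, Nfil3, Per1, Per2, Per3, Nr1d1, Nr1d2 and Arntl, and all 10 were present and passed the filter on low values in each comparison. They were chosen by their role together with a measured value: Tef was lower with AVP in males. The male comparison of AVP with saline is therefore given for these genes as a description, with no test. The tests below are those of AVP in females and of sex. The sex test takes in the same male libraries, so for Tef it is not free of the choice.

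C57BL/6J dams received arginine vasopressin (AVP) or saline from subcutaneous minipumps through gestation, an exposure the study used as a model of preeclampsia. Dorsal forebrain, the precursor of the cortex, was taken at embryonic day 18 from male and female fetuses. The groups were AVP male (n = 4), saline male (n = 4), AVP female (n = 3) and saline female (n = 4), each library from 1 brain, and no gene was altered in any of them. Within a group the study took each brain from a separate litter. By its count of brains and litters, males and females of a treatment came from the same litters, which the labels do not link. Replicates are numbered here in the order of their records. The exposure began before mating and was given to the dam, so direct action of AVP on fetal cells and action through the dam or placenta cannot be told apart. The hour of collection was not given in the sources used here, and daily timing and treatment cannot be told apart where it differed.

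The circadian clock is a transcriptional feedback loop. The protein made from Arntl (BMAL1) pairs with CLOCK, binds E-box sequences and activates the Per and Cry genes, whose products return to the nucleus and repress the pair. The REV-ERB receptors, made from Nr1d1 and Nr1d2, repress Arntl through ROR elements. TEF, DBP and HLF are the PAR bZIP activators, which bind D-box sequences in output genes, and NFIL3 is a repressor of the same D-boxes. In the brain the master clock lies in the suprachiasmatic nucleus of the hypothalamus, while TEF, DBP and HLF are also abundant in mature cortex.

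The tissue label was checked with markers. The 9 dorsal forebrain markers were all at or above 9.65 TPM in every library, with Neurod6, a factor of cortical projection neurons, at 471 to 728 TPM and Tbr1, a deep-layer neuron factor, at 86.0 to 119 TPM. The defining genes of the suprachiasmatic nucleus were at or near 0. Avp was at most 0.366 TPM and at 0 in 9 of 15 libraries, Vip at most 0.673 TPM, Six6 at most 0.0763 TPM and Nms at 0 in 14 libraries. Of the 8 markers of that nucleus, 3 had a mean of at least 1 TPM (Grp, Rgs16 and Vipr2), and cortex can also express these. The 8 markers together summed to 22.5 to 29.5 TPM in AVP males and 29.1 to 39.4 TPM in saline males. In females it was 18.9 to 31.6 TPM with AVP and 26.5 to 40.3 TPM with saline. In bulk tissue, fewer cells of a type and less RNA per cell cannot be told apart. Xist stood at 266 TPM in the library labelled saline male 3, as against 174 to 294 TPM in the females and at most 1.13 TPM in the other males, and the 4 Y-linked genes of that library summed to 0.489 TPM, as against 102 to 155 TPM in the other males. Its sex-linked transcripts thus went against its label, and male values are also given without it.

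Tef proved to be the gene whose transcripts most needed to be told apart, so the sequence of its transcript with the highest mean TPM is shown first. That transcript, Tef-205, had a mean of 13.6 TPM, beside 12.4 TPM for Tef-201, and was not the highest in every library. Tef (ENSMUSG00000022389) lies on chromosome 15 from 81802421 to 81826863 on the plus strand of GRCm38. GENCODE lists 10 transcripts, of which 4 are coding. Tef-205 is a processed transcript of 248 nt with no annotated reading frame. Its first exon, shown in capitals, covers 63 bases at chr15:81820593-81820655, which is intronic in Tef-201. Its second exon, in lower case, covers 185 bases at chr15:81821199-81821383, all within coding sequence of Tef-201.
Tef-205: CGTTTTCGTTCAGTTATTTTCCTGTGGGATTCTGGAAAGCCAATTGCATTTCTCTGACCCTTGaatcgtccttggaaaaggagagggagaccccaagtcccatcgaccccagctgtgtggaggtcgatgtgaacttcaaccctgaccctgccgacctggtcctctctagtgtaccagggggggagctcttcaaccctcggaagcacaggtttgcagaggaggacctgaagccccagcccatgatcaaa
A fragment that falls wholly in the lower-case part can come from Tef-205 or from a coding transcript, and Kallisto divides such fragments between them by estimation.

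The 250 bases before the start sites of the members were searched on both strands for the elements named above, because members that are read side by side below may share them. The start sites and bases are those of RefSeq on GRCm38.p6, where 9 of the 10 genes matched, with 12 windows, and Per2 did not. The letters searched were CACGTG for the E-box, TTATGTAA or TTACGTAA for the D-box, TAGGTCA for the core of the ROR element and TGACGTCA for the cAMP response element (CRE). No matches overlapped. The E-box was found in 3 of the 12 windows (6.02% of all 32851 windows), in both windows of Tef and the first of Per1. The D-box was found in 1 window (0.931% of all), that of Per3, which held it at 2 places. The ROR element core was found in 1 window (2.23% of all), that of Nfil3, and the CRE in 1 (1.55% of all), that of Hlf. The windows of Dbp, Nr1d1, Nr1d2 and Arntl and the second of Per1 held none of these letters. Other forms of the elements, and elements outside the 250 bases, were not searched, so these genes cannot be said to lack them. The 4 windows with a match and at most 1 base of annotated exon are shown, 5′ to 3′ in the direction of the gene, with the matches in capitals. They lie at chr15:81811164-81811413 (Tef, plus strand, the window of Tef-201), chr11:69098699-69098948 (Per1, plus), chr4:151044666-151044915 (Per3, minus) and chr11:90390918-90391167 (Hlf, minus).
Tef: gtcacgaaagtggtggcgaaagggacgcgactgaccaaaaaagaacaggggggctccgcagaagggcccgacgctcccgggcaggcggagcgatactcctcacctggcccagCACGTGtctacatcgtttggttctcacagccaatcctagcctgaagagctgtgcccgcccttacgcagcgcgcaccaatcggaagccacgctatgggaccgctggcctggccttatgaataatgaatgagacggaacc
Per1: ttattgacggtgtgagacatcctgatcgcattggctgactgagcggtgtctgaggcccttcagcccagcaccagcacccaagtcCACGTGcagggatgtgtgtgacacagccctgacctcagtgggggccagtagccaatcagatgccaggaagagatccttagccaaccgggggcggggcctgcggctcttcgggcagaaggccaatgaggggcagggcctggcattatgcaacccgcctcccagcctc
Per3: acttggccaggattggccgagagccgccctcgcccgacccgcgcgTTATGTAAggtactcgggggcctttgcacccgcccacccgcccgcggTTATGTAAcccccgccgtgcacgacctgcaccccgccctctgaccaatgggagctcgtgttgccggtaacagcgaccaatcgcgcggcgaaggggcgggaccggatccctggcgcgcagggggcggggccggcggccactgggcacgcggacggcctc
Hlf: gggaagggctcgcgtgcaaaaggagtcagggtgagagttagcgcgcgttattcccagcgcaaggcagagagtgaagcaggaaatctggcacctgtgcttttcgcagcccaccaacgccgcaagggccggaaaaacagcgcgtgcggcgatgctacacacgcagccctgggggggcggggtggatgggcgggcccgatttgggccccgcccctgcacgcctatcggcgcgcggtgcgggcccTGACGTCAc
The E-box began 138 bases before the start site of Tef-201 and 166 bases before that of Per1, the nearer D-box of Per3 began 158 bases before its start, and the CRE of Hlf 9 bases before its start. A match is a description of the sequence and was not tied to any measurement here.

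The deposited values are TPM, a transcript's abundance relative to its length and to the library total. Summed to genes, they can be compared between genes. Over the 15 libraries Tef had the highest mean of the members at 46.5 TPM, followed by Nfil3 at 39.0, Arntl at 14.8, Per1 at 13.7, Dbp at 8.27, Nr1d2 at 7.66, Hlf at 5.37, Per2 at 4.59, Nr1d1 at 3.04 and Per3 at 1.94 TPM. Among neighbours in this order, the ranges of Nfil3 and Arntl did not overlap, and those of the other 8 pairs did. Tef was above Nfil3 in 10 of 15 libraries, Arntl above Per1 in 11, Dbp above Nr1d2 in 10 and Hlf above Per2 in 8, so these neighbours did not keep their order. Per1 was above Dbp, Per2 above Nr1d1 and Nr1d1 above Per3 in all 15 libraries, and Nr1d2 was above Hlf in 14. The order rests in part on transcripts that are not coding. With coding transcripts alone Tef had a mean of 23.8 TPM and was below Nfil3 in 15 of 15 libraries, and Per1 and Arntl were at 13.6 and 13.7 TPM. The repressor NFIL3 thus had more transcript than DBP and HLF, which bind the same D-boxes, in every library: Nfil3 ranged from 33.4 to 43.4 TPM, Dbp from 6.27 to 11.3 TPM and Hlf from 3.94 to 9.69 TPM.

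**Figure D1:**
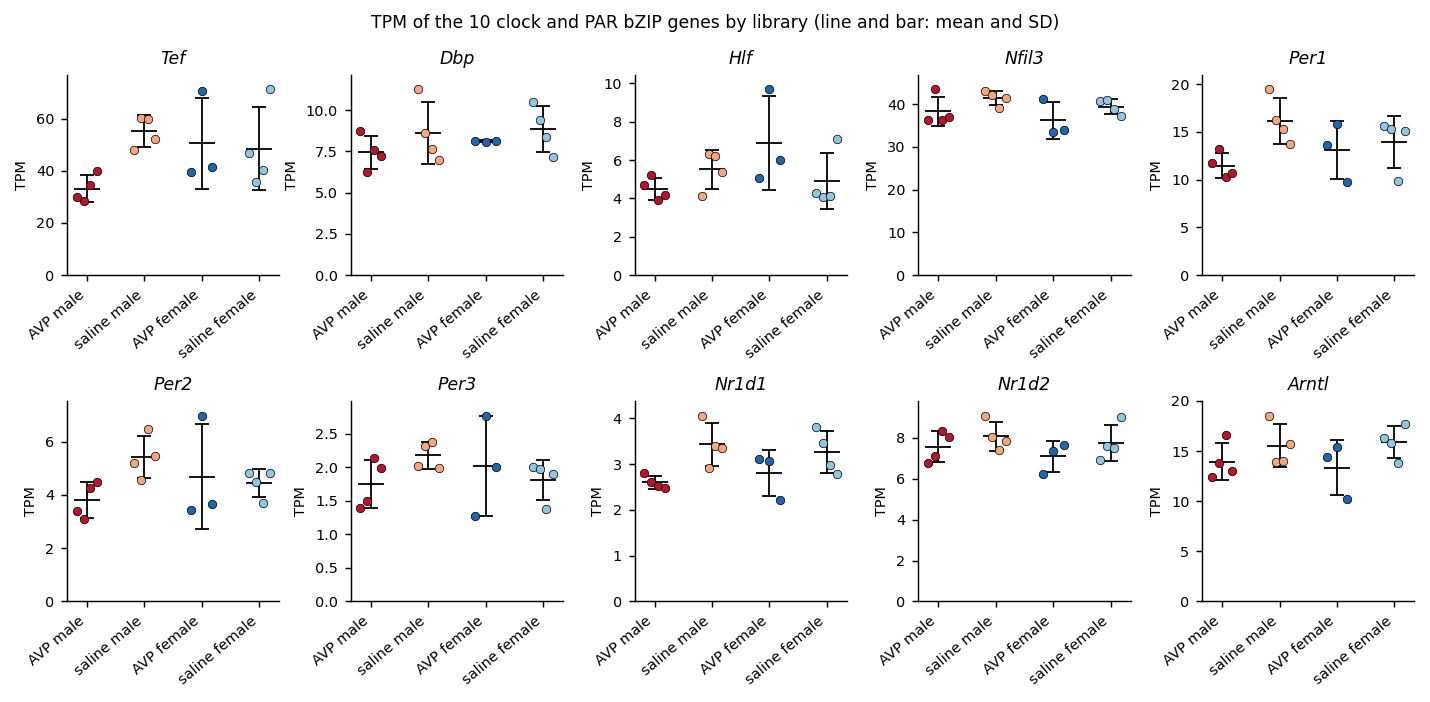
TPM (vertical axes, from 0) of each of the 10 genes in the AVP male, saline male, AVP female and saline female libraries (points), with the mean and SD of each group as a line and bar. In males the points of Tef, Per1, Per2 and Nr1d1 do not overlap between AVP and saline, and in females no gene separates the groups.

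The PAR bZIP activators come first. Tef was at 29.9, 28.5, 34.6 and 39.7 TPM in AVP males, against 47.9, 60.3, 60.0 and 52.2 TPM in saline males. Every AVP male lay below every saline male, which is the difference the gene was chosen by. The means were 33.2 ± 5.11 and 55.1 ± 6.09 TPM (SD, n = 4 each), and the log2 fold change on log2(TPM + 0.5) was -0.73 (SE 0.12). Without the library labelled saline male 3 it was -0.69. Among libraries numbered 1 to 8 the difference was -0.87 and among those numbered 13 to 20 it was -0.59, with 2 AVP and 2 saline males in each. In females Tef was at 39.4, 70.5 and 41.3 TPM with AVP, against 46.7, 35.6, 40.2 and 71.2 TPM with saline. The highest library of either group stood well above the rest, and the groups overlapped throughout. The female log2 fold change was 0.06 (95% confidence interval -0.57 to 0.68, adjusted p = 0.999, limma). Its sign turned with single libraries, to -0.21 without AVP female 2 and 0.26 without saline female 4.

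On the TPM scale, most of the male difference in Tef lay in transcripts that are not coding. Tef-205 was at 5.75, 1.62, 7.75 and 8.58 TPM in AVP males, against 9.37, 22.5, 20.5 and 16.0 TPM in saline males, without overlap. Tef-207, a retained intron transcript of 791 nt, was at 2.27, 3.78, 4.34 and 6.53 TPM with AVP, against 8.84, 8.99, 8.04 and 7.87 TPM with saline, again without overlap. Of the difference in mean TPM between the male groups, -21.9 TPM, Tef-205 made up 50.9% and Tef-207 19.2%. The coding transcripts together made up 22.5% of it. In TPM times length the shares turned round, with 65.8% of the difference in coding transcripts and 9.49% in Tef-205. Their sum was at 20.5, 21.6, 20.3 and 22.4 TPM in AVP males, against 26.3, 26.3, 27.5 and 24.5 TPM in saline males. The coding sum was thus also lower in every AVP male, by a smaller step.

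The 2 coding transcripts above 10% of the gene's TPM start at different places and did not move alike. Tef-201 (4079 nt), which starts at 81811414, was at 11.5, 11.8, 10.3 and 8.35 TPM in AVP males, against 13.4, 15.3, 14.8 and 15.03 TPM in saline males. Tef-202 (4403 nt), from the upstream start, was at 8.72, 8.85, 9.80 and 13.8 TPM with AVP, against 11.2, 10.4, 12.1 and 9.21 TPM with saline. The groups did not overlap in Tef-201 and overlapped in Tef-202. The difference between the 2 transcripts was not tested.

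**Figure D2:**
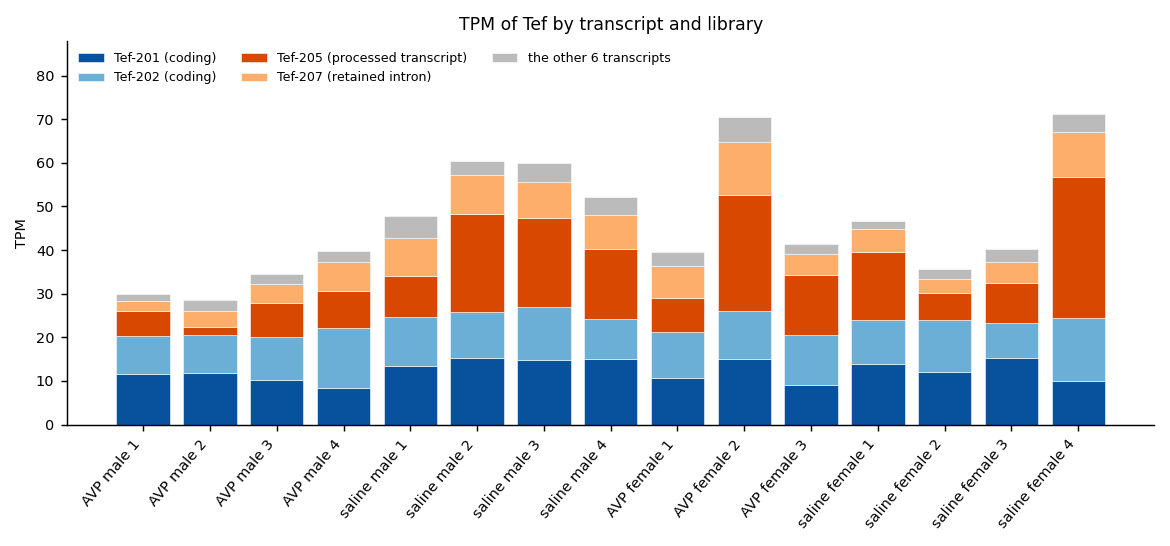
Stacked TPM of the Tef transcripts (vertical axis) in each of the 15 libraries (horizontal axis), with the coding Tef-201 and Tef-202 in blue, Tef-205 and Tef-207 in orange and the other 6 transcripts in grey. The orange stack differs more between libraries than the blue one, and the tallest bar is 71.2 TPM in saline female 4.

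How much weight the short transcripts carry depends on the scale. Tef-205 held 29.2% of the TPM of Tef but 3.0% of its TPM times length, a quantity closer to the share of fragments. All transcripts that are not coding held 48.9% and 12.6%. With coding transcripts alone the male log2 fold change of Tef was -0.30 (SE 0.07), and with all transcripts weighted by length it was -0.31 (SE 0.06). Both were under a log2 fold change of -0.73 in size by more than 1.5 times, and on both scales every AVP male remained below every saline male. With length weighting, which is scaled to the same total in each library, Tef was at 56.7, 54.4, 55.7 and 61.0 in AVP males, against 67.5, 72.8, 73.1 and 69.2 in saline males. These scales were chosen after the data were seen.

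The share of a library's TPM in retained intron transcripts moved in part with the transcripts of Tef that are not coding. That share was 3.66%, 3.52%, 5.49% and 5.94% in the AVP males and 6.22%, 5.53%, 6.55% and 5.53% in saline males. It was 3.90%, 6.79% and 5.20% in the AVP females and 5.35%, 5.67%, 4.29% and 6.50% in the saline females. AVP males 1 and 2, with the lowest shares of all 15 libraries, also had the lowest sums of the Tef transcripts that are not coding, at 9.39 and 6.83 TPM. AVP female 2 and saline female 4 had the highest sums, at 43.6 and 46.5 TPM, and the first and the third highest shares. The coding sum of Tef in these 2 females was 26.9 and 24.7 TPM, also the highest of the 7 females, with the others at 21.6 to 24.04 TPM. The order was not complete, since saline female 2 had a share of 5.67% and a sum of 11.7 TPM. AVP males 3 and 4, with shares of 5.49% and 5.94%, had sums of 14.2 and 17.4 TPM. Saline males 2 and 4, both with a share of 5.53%, had sums of 34.1 and 27.7 TPM. The part of this share in the difference was not tested.

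**Figure D3:**
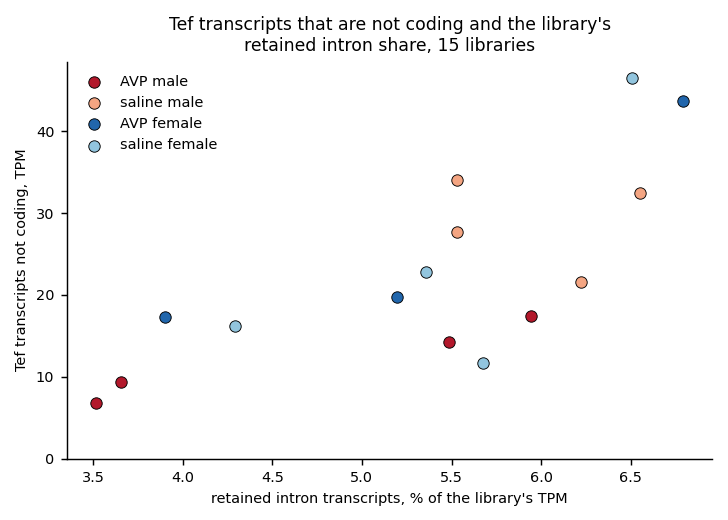
The summed TPM of the Tef transcripts that are not coding (vertical axis) against the percent of each library's TPM in retained intron transcripts (horizontal axis), with 1 point for each of the 15 libraries, coloured by group. The libraries with the lowest shares, AVP males 1 and 2, have the lowest sums and AVP female 2 and saline female 4 have the highest sums.

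Dbp (ENSMUSG00000059824, chromosome 7, 45705088 to 45710203, plus strand) was at 8.73, 6.27, 7.57 and 7.24 TPM in AVP males, against 11.3, 8.62, 7.62 and 6.97 TPM in saline males. The groups overlapped, with a log2 fold change of -0.18 (SE 0.16). It was -0.05 without saline male 1, -0.11 without AVP male 2 and -0.23 without the library labelled saline male 3, and with coding transcripts alone it was -0.0054. The coding Dbp-201 held 42.6% and Dbp-204 18.0% of its TPM, and the retained intron transcripts Dbp-202 and Dbp-205 held 19.01% and 13.4%. In females it was 8.06 to 8.15 TPM with AVP and 7.18 to 10.5 TPM with saline, and the AVP females were close to one another. Hlf (ENSMUSG00000003949, chromosome 11, 90336536 to 90390895, minus strand) was at 4.71, 5.24, 3.94 and 4.16 TPM in AVP males, against 4.15, 6.31, 6.19 and 5.41 TPM in saline males. Saline male 1 lay among the AVP males, and the log2 fold change was -0.25 (SE 0.16), or -0.20 without the library labelled saline male 3. In females Hlf had the largest log2 fold change of the 10 genes, 0.44 (95% confidence interval -0.18 to 1.06, adjusted p = 0.999, limma). It was at 5.05, 9.69 and 6.00 TPM with AVP, against 4.31, 4.06, 4.15 and 7.12 TPM with saline. The 2 highest libraries for Hlf, AVP female 2 and saline female 4, were the same that stood highest for Tef, and without AVP female 2 the log2 fold change was 0.19. Over all libraries, coding transcripts held 94.99% of the TPM of Hlf.

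Nfil3 (ENSMUSG00000056749, chromosome 13, 52967209 to 52981073, minus strand), which has 1 annotated transcript, had the smallest ratio of highest to lowest library, 43.4 to 33.4 TPM. It was at 36.3, 43.4, 36.2 and 37.1 TPM in AVP males, against 43.1, 42.2, 39.1 and 41.3 TPM in saline males. AVP male 2 was the highest of all 15 libraries, and the log2 fold change was -0.12 (SE 0.08), close to the median of all genes in males, -0.10. Without AVP male 2 it was -0.18, and without the library labelled saline male 3 it was -0.14. In females it was 33.4 to 41.2 TPM with AVP and 37.1 to 40.9 TPM with saline (log2 fold change -0.12, 95% confidence interval -0.37 to 0.12, adjusted p = 0.999, limma).

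The period genes encode the repressors of the loop. Per1 (ENSMUSG00000020893, chromosome 11, 69095217 to 69109960, plus strand) was at 11.7, 13.2, 10.3 and 10.6 TPM in AVP males, against 19.4, 16.2, 15.3 and 13.7 TPM in saline males. All AVP males were below all saline males, with a log2 fold change of -0.47 (SE 0.13), or -0.495 without the library labelled saline male 3. Its main transcript held 71.1% of its TPM, and 99.1% was coding, and the coding value was -0.46. A second coding transcript of 496 nt held 13.5%, at 1.91, 2.80, 0.518 and 0.452 TPM in AVP males, against 4.09, 3.31, 2.77 and 2.24 TPM in saline males, with overlap. In females Per1 was at 13.7, 15.9 and 9.80 TPM with AVP, against 15.6, 15.3, 9.90 and 15.1 TPM with saline. The lowest library of each group, AVP female 3 and saline female 3, stood apart from the rest, and the log2 fold change was -0.09 (95% confidence interval -0.59 to 0.41, adjusted p = 0.999, limma).

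Per2 (ENSMUSG00000055866, chromosome 1, 91415982 to 91459324, minus strand) was at 3.41, 3.09, 4.25 and 4.50 TPM in AVP males, against 5.19, 4.58, 6.46 and 5.445 TPM in saline males. The groups were close, with 4.50 TPM in AVP male 4 and 4.58 TPM in saline male 2, and did not overlap, and the log2 fold change was -0.46 (SE 0.16). The highest saline library was the one labelled saline male 3, and without it the value was -0.38. In females Per2 was at 3.42, 6.97 and 3.68 TPM with AVP, against 4.82, 4.50, 3.70 and 4.81 TPM with saline, and the log2 fold change was 0.01 (95% confidence interval -0.57 to 0.58, adjusted p = 0.999, limma). AVP female 2 was again above the rest, and without it the value was -0.29. Per3 (ENSMUSG00000028957, chromosome 4, 151003652 to 151044665, minus strand) was the lowest of the members and 35.6% of its TPM was coding. A processed transcript of 3663 nt held 49.0%. It was at 1.40, 1.501, 2.13 and 1.99 TPM in AVP males, against 2.02, 2.32, 2.38 and 1.995 TPM in saline males, which overlapped (log2 fold change -0.26, SE 0.17). Without the library labelled saline male 3 the value was -0.22. In females it was 1.28 to 2.77 TPM with AVP and 1.37 to 2.01 TPM with saline, with AVP females holding both the lowest and the highest of all 15 libraries.

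Of the REV-ERB receptor genes, Nr1d1 (ENSMUSG00000020889, chromosome 11, 98767932 to 98775333, minus strand) was at 2.80, 2.61, 2.52 and 2.49 TPM in AVP males, against 4.06, 2.91, 3.41 and 3.36 TPM in saline males. The groups did not overlap, and the log2 fold change was -0.33 (SE 0.14), or -0.34 without the library labelled saline male 3. Its exons share 263 of 3077 bases with Thra on the opposite strand, and the libraries and the mapping were stranded. Nr1d2 (ENSMUSG00000021775, chromosome 14, 18204054 to 18239127, minus strand) was at 6.78, 7.11, 8.35 and 8.06 TPM with AVP, against 9.09, 8.03, 7.40 and 7.83 TPM with saline. These overlapped, and its log2 fold change of -0.09 (SE 0.11) was the smallest of the 10. It was -0.04 without saline male 1 or AVP male 1, -0.14 without AVP male 3 and -0.13 without the library labelled saline male 3. A retained intron transcript of 687 nt held 18.5% of its TPM, and with coding transcripts alone the value was -0.0054. In females Nr1d1 was at 3.11, 3.06 and 2.22 TPM with AVP and 3.81, 3.47, 2.98 and 2.79 TPM with saline, and the log2 fold change was -0.19 (95% confidence interval -0.65 to 0.26, adjusted p = 0.999, limma), with -0.06 without AVP female 3 and -0.12 without saline female 1. For Nr1d2 it was -0.12 (95% confidence interval -0.48 to 0.24, adjusted p = 0.999, limma).

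Arntl (ENSMUSG00000055116, chromosome 7, 113207465 to 113314126, plus strand), the E-box activator, was at 12.4, 13.9, 16.6 and 12.96 TPM in AVP males, against 18.5, 13.9, 14.1 and 15.7 TPM in saline males. The groups overlapped, with a log2 fold change of -0.15 (SE 0.13). It was -0.06 without saline male 1, -0.10 without AVP male 1, -0.23 without AVP male 3 and -0.19 without the library labelled saline male 3. Its coding transcripts of 2908 and 2464 nt held 78.9% and 11.3% of its TPM. In females it was at 14.4, 15.4 and 10.2 TPM with AVP, against 16.3, 15.8, 13.8 and 17.7 TPM with saline. AVP female 3 was the lowest of all 15 libraries, and the log2 fold change of -0.26 (95% confidence interval -0.65 to 0.13, adjusted p = 0.999, limma) was the most negative of the members in females. Without AVP female 3 it was -0.08.

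Set side by side, the members were at their lowest in different libraries. In AVP males 1 and 2, 7 of the 10 genes were each among their 5 lowest libraries, and in AVP males 3 and 4, 6 were. In the saline males at most 1 gene was, and saline male 1 was the highest of all 15 libraries for 5 genes, Dbp, Per1, Nr1d1, Nr1d2 and Arntl. In females, AVP female 3 and saline female 3 each had 5 genes among their 5 lowest libraries, while AVP female 2 was highest for Hlf, Per2 and Per3. Such counts were not made over all genes, whose median log2 fold change in males was also below 0 (-0.10). The male contrast chose the genes, so nothing is read from these counts.

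**Figure D4:**
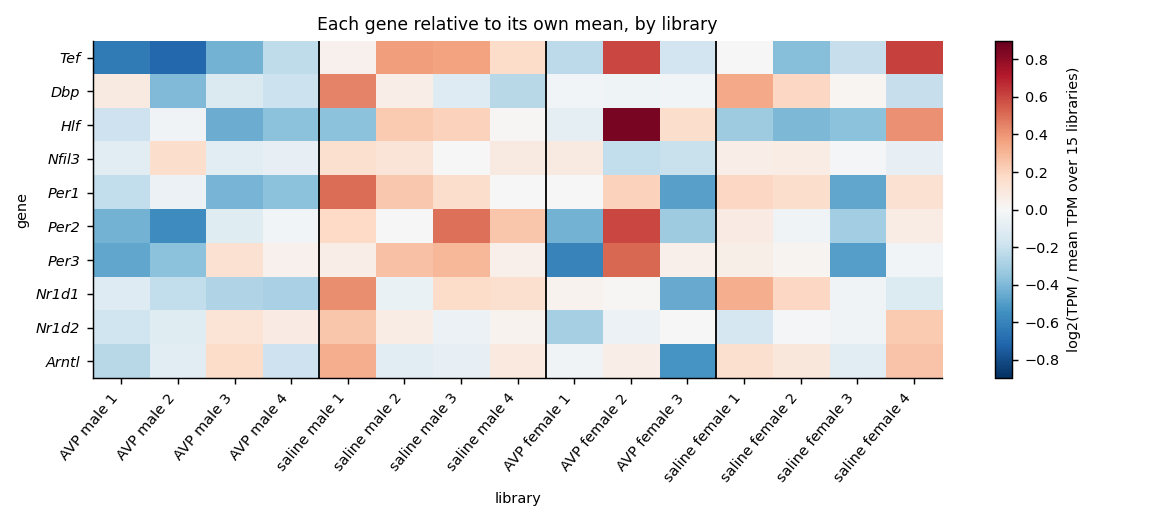
Each gene (rows) in each of the 15 libraries (columns, by group) as log2 of its TPM over its own mean, from blue (below) to red (above). The AVP males are mostly blue and the saline males mostly red, while AVP female 2 is red for Tef, Hlf, Per2 and Per3.

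In males the log2 fold changes of all 10 members were below 0, from -0.73 to -0.09 with a median of -0.26, and 9 were below the median of all genes tested, -0.10. The direction of the smallest values depended on the scaling: with quantile normalization 8 of 10 members were below 0 and with median-of-ratios scaling 9 were, while the median of all genes moved to 0.02 and 0.0034. In 4 of 10 the groups did not overlap, all lower with AVP. Over all 15271 genes, 6.54% were lower without overlap and 0.733% higher. The contrast was used to choose the genes, so nothing is read from this count. Without the library labelled saline male 3 the same 4 genes did not overlap, beside 7.58% of all genes lower and 1.48% higher. With quantile normalization and with median-of-ratios scaling only Tef and Per1 did not, while Per2 and Nr1d1 overlapped. Over all genes, 2.50% were lower without overlap and 3.23% higher with the former scaling, and 2.43% and 4.28% with the latter. Among libraries numbered 1 to 8 all 10 members were lower with AVP, and among those numbered 13 to 20, 8 were. The share over all genes was not computed within these library numbers. In females the median of the members was -0.10, beside -0.05 for all genes, with 6 lower and 4 higher. Of the 10, 0 passed an adjusted p of 0.05 and 0 were under 0.05 before adjustment. Over all 15132 genes tested by limma in females, 0% passed and 4.51% had an unadjusted p under 0.05. The study, with sleuth, did call genes in these female groups. The absence of called genes here therefore cannot be read as an absence of effects of AVP in females. In 0 of the 10 did the female groups separate, as against 2.77% of all genes lower without overlap and 2.78% higher. Whether the effect of AVP differed between the sexes was not tested, because the male values chose the genes.

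**Figure D5:**
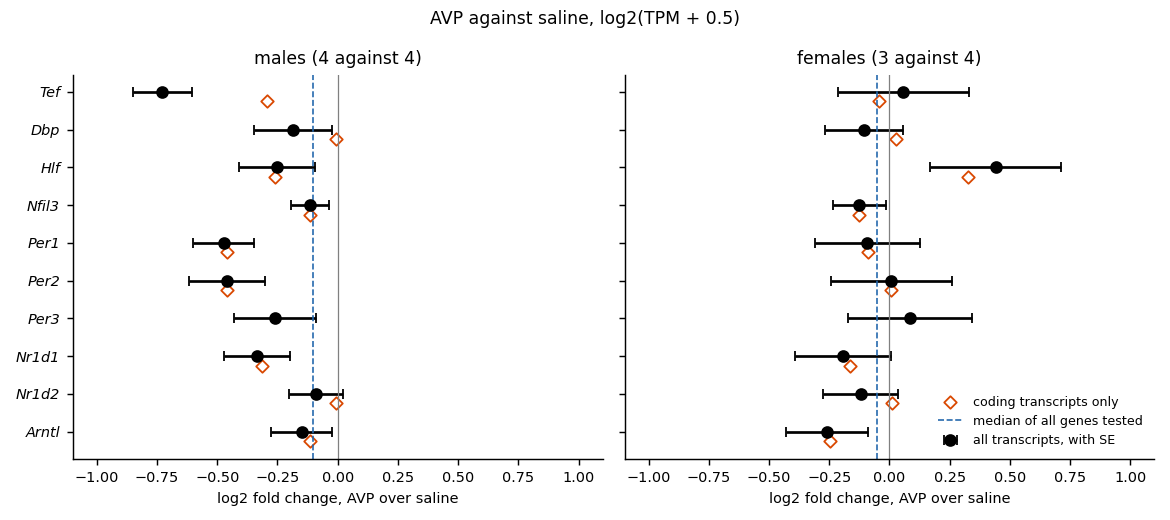
Log2 fold change of AVP over saline (horizontal axis) of the 10 genes in males (left) and females (right), as black points with the standard error, with the value from coding transcripts alone as open diamonds and the median of all genes tested as a dashed line. In males all points lie left of 0 and the diamond of Tef lies at -0.30, and in females the points lie on both sides of 0.

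Sex was compared over all 15 libraries with treatment as a covariate. No member passed, and 0 were under 0.05 before adjustment. Over 15078 genes, 0% passed by limma and 1.39% were under 0.05 before adjustment. The log2 differences, female minus male, ranged from -0.08 for Nfil3 (95% confidence interval -0.20 to 0.05) to 0.15 for Hlf (95% confidence interval -0.22 to 0.52). For Tef the difference was 0.13 (95% confidence interval -0.25 to 0.52, adjusted p = 0.99997, limma). The male values that chose Tef enter this difference, so it is not free of that choice and nothing is read from it. With saline libraries only its sign turned, as given below. The library labelled saline male 3 entered as a male, with Xist at 266 TPM. Xist was at 174 to 294 TPM in the females and at most 1.13 TPM in the other males, yet it was not called. The absence of called genes therefore cannot be read as an absence of sex differences. Counted as a female, the library labelled saline male 3 left all members short of the threshold. Male and female libraries of a treatment came from the same litters, which this test does not model.

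The other genes of the clock were taken as a list of 20, of which 18 were tested. In males 17 of the 18 were below 0, with a median of -0.15 beside -0.10 for all genes, and 11 of the 18 were below that median of all genes. In 4 of them, Clock, Cry2, Bhlhe40 and Fbxw11, every AVP male lay below every saline male, beside 6.54% of all genes. The same 4 did so without the library labelled saline male 3, but with quantile normalization only Clock did and with median-of-ratios scaling only Clock and Cry2 did. The number below 0 was then 12 and 11 of the 18. Clock, which encodes the partner of BMAL1, was at 4.99 to 6.70 TPM with AVP and 7.65 to 8.36 TPM with saline, and the log2 fold change was -0.39 (SE 0.12), or -0.37 without the library labelled saline male 3. Cry2, a partner of the period proteins in repression, was at 18.7 to 20.7 TPM with AVP and 21.7 to 25.5 TPM with saline (-0.27, SE 0.08, and -0.24 without that library). Bhlhe40, which encodes DEC1, another repressor at E-boxes, was at 5.89 to 9.48 TPM and 9.68 to 18.1 TPM (-0.67, SE 0.21, and -0.78 without that library). These genes are named because the count is 4, after their values were seen, and the contrast is the one that chose the members.

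In females 0 of the 18 passed. Before adjustment 4.51% of all genes were under 0.05, and 1 of the 18 was. It was Npas2, an alternative partner of BMAL1 in forebrain, at 1.72 to 3.23 TPM with AVP and 3.58 to 6.09 TPM with saline, and the log2 fold change was -0.87 (SE 0.26, adjusted p = 0.999, limma). Cry1 was also lower without overlap, at 11.3 to 13.2 TPM and 13.7 to 15.8 TPM (-0.22, SE 0.13). With Npas2 that made 2 of the 18 lower without overlap, beside 2.77% of all genes. Both were named after their values were seen. The 5 most abundant of the list were Nono at a mean of 369 TPM, Csnk1e at 287, Csnk1d at 117, Fbxw11 at 68.2 and Gsk3b at 59.6 TPM. Nono encodes an RNA-binding protein, and the others encode kinases and an F-box protein that act on clock proteins after translation. Their female log2 fold changes ranged from -0.10 for Csnk1e to 0.09 for Gsk3b (adjusted p = 0.999 each, limma). The 5 clock output genes, targets of the loop and of D-boxes in other tissues, were Por at 61.0 TPM, Nampt at 33.9, Pdxk at 10.02, Wee1 at 4.77 and Usp2 at 4.71 TPM. Of these, 0 passed in females or between the sexes. In males all 5 were below 0, from -0.34 for Usp2 to -0.09 for Wee1, and in each the groups overlapped. Of the 5, 3 were below the median of all genes, and with quantile normalization 1 was below 0.

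Markers of other cell types differed between libraries. In females the 5 meningeal fibroblast markers summed to 110 to 146 TPM with AVP and 64.8 to 76.8 TPM with saline, and the 4 endothelial markers to 122 to 130 TPM and 68.3 to 113 TPM. In males both sums overlapped between the groups. Other lists leaned one way in females while their sums overlapped and 0 of their genes passed the threshold. All 4 red blood cell markers were above 0 (median log2 fold change 1.01), with sums of 3588 to 9967 TPM with AVP and 1607 to 4192 TPM with saline. All 4 choroid plexus markers tested were above 0 (median 2.14), with sums of 19.9 to 2255 TPM and 4.59 to 946 TPM, and all 6 striatal markers were below 0 (median -0.68), with sums of 35.7 to 116 TPM and 73.2 to 131 TPM. In males the medians of these 3 lists were 0.31, -1.49 (from 1 gene tested) and 0.04. The 6 glucocorticoid response genes, which can follow maternal stress hormones, and the 6 immediate early genes had 0 genes past the threshold in females, and their sums overlapped between treatments in both sexes. Of the glucocorticoid genes 5 of 6 were below 0 in each sex. Set against the median of all genes, 5 of 6 were below it in females (-0.05) but 2 of 6 in males (-0.10). Sgk1, a kinase gene, was lower without overlap in females (-0.40, SE 0.15, adjusted p = 0.999, limma), beside 2.77% of all genes. In males Sgk1 was at -0.41 with overlap. Zbtb16, a transcription factor gene, was lower without overlap in males (-0.41, SE 0.17), beside 6.54% of all genes. Both were named after their values were seen. The part of these in the values of the members was not tested.

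The genes whose order over the 15 libraries was most like that of Tef were found by Spearman's rho over 15077 other genes, as a description. The libraries share the tissue, and they differ in the retained intron share given above. The closest were Gm21986 (rho = 0.91), Rps6kb2, a ribosomal protein S6 kinase (0.90), Stard5, a lipid transfer protein (0.90), Eaf1, a factor of transcription elongation (0.89), and Helq, a DNA helicase (0.89). Of the members Per2 was closest at 0.81, in place 101, followed by Hlf at 0.67 (place 1330), Per1 at 0.58 (place 2519) and Per3 at 0.55 (place 3032). The remaining members were at 0.35 for Nr1d2 (place 5937), 0.33 for Arntl (place 6304) and 0.27 for Nr1d1 (place 7249). Dbp was at -0.03 (place 11523) and Nfil3 at -0.06 (place 11811). The male libraries whose values chose Tef enter these values of rho, so nothing is read from them.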

How the data were processed

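Stranded mRNA libraries of total RNA from dorsal forebrain at embryonic day 18 were analysed, with 15 libraries in 4 groups. Per the labels and the study's methods, the authors trimmed the reads with Trim Galore 0.4.1, checked them with FastQC 0.5.2 and quantified GENCODE M16 transcripts (GRCm38) with Kallisto 0.43.1, with bias correction and the stranded setting. They tested genes with sleuth 0.29.0, and the study left out 1 AVP female as an outlier. The deposited values were read as TPM from their equal totals. Such values keep no depth, which is therefore unknown, and neither a counting interval nor a count model was used. TPM are shared between overlapping transcripts by estimation.

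The 133849 transcripts were added up to 53337 genes by GENCODE M21 on the same assembly. The 404 transcripts without a gene held 0.154% to 0.199% of a library's TPM. Genes that reached 1 TPM in 50% or more of the libraries compared were fitted by limma 3.58.1 (R 4.3.3) on log2(TPM + 0.5), with its trend of variance on mean. The added 0.5 understates changes of low genes. P-values were two-sided with Benjamini-Hochberg adjustment over all genes tested and a threshold of 0.05. The AVP and saline groups were compared within each sex, as in the study's methods, and sex over all libraries with treatment as a covariate. The test was tested on simulated data. Genes named beside the 10 members were those past the threshold in their lists, otherwise the 5 with the highest mean TPM, the 5 with the highest rho to Tef, and transcripts with at least 10% of a gene's TPM. A few genes outside this rule were named after their values were seen, as stated beside them. The members and lists were chosen with earlier results of these data known. Alternatives were pseudocounts, filters, scalings, no trend, the run of library numbers, saline libraries only and leaving out each library. Coding transcripts only, length weighting, saline male 3 counted as a female and other scalings of the lists in males were added after the data were seen. Promoter sequences were those of RefSeq, and figures were drawn with matplotlib 3.10.9.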

Additional observations from a re-analysis of the deposited data

Results flagged for a closer look

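Each gene was examined in the groups of 4 libraries for a library whose gap to its nearest neighbour takes up most of the group's range, by Dixon's criterion at 95%. Over 36 groups, Tef's coding and other transcripts included, 4 values stood apart in this way, and 1.8 would by chance, at 1 in 20. Hlf was at 7.12 TPM in saline female 4, against 4.06 to 4.31 TPM in the other saline females. Nfil3 was at 43.4 TPM in AVP male 2, against 36.2 to 37.1 TPM in the other AVP males. Per1 was at 9.90 TPM in saline female 3, against 15.1 to 15.6 TPM in the other saline females. Per3 was at 1.37 TPM in the same library, against 1.90 to 2.01 TPM.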

How the results depend on the processing

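Tef stayed lower with AVP in males in all 18 alternatives, but its log2 fold change moved from -0.73 to -0.30 with coding transcripts only and to -0.31 with transcripts weighted by length. By construction, both give less weight to short transcripts that are not coding. Leaving out 1 male library at a time, it ranged from -0.82 to -0.66, and the number of members below 0 remained 10. The male values of Dbp, Nfil3, Nr1d2 and Arntl moved by over 1.5 times when single libraries were left out, as given beside them. Under the filter of 5 TPM in every library 6 members were tested and 6 were below 0. With coding transcripts only 9 members were tested, since Per3 fell under the filter. In females no member passed in any of the 18 alternatives, and between the sexes none in any of the 27. The number of genes past the threshold in females ranged from 0 to 6 when 1 library was left out, 6 without saline female 4 and 1 without AVP female 3 or saline female 2, and was 1 with length weighting. Between the sexes it ranged from 0 to 7, 7 without saline female 1 or the library labelled saline male 3, 6 without saline female 2, 3 or 4, and 1 without AVP male 3. It was 1 with saline libraries only, 1 with length weighting and 2 with saline male 3 counted as female. The causes were not tested.

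Female values of uncalled members turned sign as follows. With the run of library numbers as a covariate, Tef was at -0.011 and Per2 at -0.013. With coding transcripts only, Tef was at -0.042, Dbp at 0.027 and Nr1d2 at 0.011. With length weighting, Tef was at -0.0027 and Nr1d2 at 0.040. With saline male 3 counted as a saline female, Tef was at -0.014 and Per2 at -0.091. When 1 library was left out, Tef ranged from -0.21 to 0.26, Per2 from -0.29 to 0.18, Per3 from -0.12 to 0.32 and Per1 from -0.24 to 0.096, while Dbp ranged from -0.20 to -0.025, Nfil3 from -0.22 to -0.071, Nr1d2 from -0.18 to -0.035 and Nr1d1 from -0.27 to -0.061 with no turn of sign. Between the sexes, Nr1d1 was at 2.5e-05 with median-of-ratios scaling and 0.011 with the run as a covariate. With saline libraries only, Tef was at -0.23, Hlf at -0.17 and Arntl at 0.036. With saline male 3 counted as female, Per2 was at 0.065, Per3 at 0.00018 and Nr1d1 at 0.0082. With length weighting, Per1 was at 0.063, Nr1d2 at 0.011 and Arntl at 0.010. When 1 library was left out, Tef ranged from -0.020 to 0.23, Per1 from -0.12 to 0.051, Per2 from -0.18 to 0.022, Per3 from -0.16 to 0.012, Nr1d1 from -0.037 to 0.045 and Arntl from -0.052 to 0.062. No paired analysis was possible because the labels give the groups no shared replicate numbers. The depth of the libraries is unknown, and the low members rest on few TPM.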
